A study of Mus musculus with 3 samples.

Results

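The transcripts described here are those of established targets of the tumour suppressor p53. Whether p53 controls them in the cells used here was not tested. Their signals were read in 4T1 cells, a mouse mammary carcinoma line, on Affymetrix Mouse Genome 430 2.0 arrays. The targets were chosen by name, as every probe set that the array annotation assigns to a single listed gene, which gave 9 of 18193 named genes and 20 of 45037 probe sets. The listed genes were Trp53, Cdkn1a, Mdm2, Trp53inp1, Ccng1, Sesn1, Btg2, Plk2, Perp and Zmat3. Trp53, which encodes p53 itself, had no probe set under this rule and is not analysed here. The 3 arrays stand for 3 conditions with 1 array each. In the co-culture condition 4T1 cells were kept for 1 week in contact with MSCs (mesenchymal stem or stromal cells, as the abbreviation is commonly understood) and were then isolated. In the conditioned-medium condition they spent 1 week in medium conditioned by MSCs. In the regular-medium condition they grew in regular medium, and the labels state no culture time. All conditions share RPMI-1640 with fetal bovine serum as the stated growth medium, and the labels name no agent or allele. The 4T1 line has been described as lacking functional p53, a property that these arrays do not measure.

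p53 is a transcription factor that accumulates after DNA damage and other stresses and binds paired half-sites in DNA to switch on its targets. Its best known targets stop the cell cycle, start cell death, adjust metabolism and redox state, or shut p53 down again. Many of them also answer to p53-independent signals, among them the integrated stress response, serum factors and interferon. A p53 target therefore does not report p53 activity by itself.

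Promoter windows were available for 6 of the 9 genes, as 8 windows of 300 bases that run from 250 bases before to 50 after a RefSeq start site (build GRCm38.p6). They were searched for the p53 half-site consensus, 3 purines, C, 2 bases that are A or T, G and 3 pyrimidines, which reads the same on both strands. Of the 8 windows 4 held a match, and of all 32851 windows of this length 8.36% did. The upstream Cdkn1a window held 2 matches, which start 73 and 51 bases before the start site and do not overlap. Such a pair, with a spacer of at most 13 bases, was found in 24 of all windows, or 0.0731%. Only exact matches were counted and marked. The stretch directly after the second Cdkn1a match departs from the consensus only at its first base and is left unmarked. Which stretches p53 binds as a pair was not tested. No match was found in the other Cdkn1a window, in one of the Sesn1 windows or in those of Btg2 and Plk2, and this says nothing about p53 binding elsewhere. The 4 windows with a match are printed so that the letters can be set beside the signals below, each 5′ to 3′ with the matches in capitals. They lie at chr17:29090729-29091028 on the plus strand (Cdkn1a), chr10:117710709-117711008 on the minus strand (Mdm2), chr11:40755237-40755536 on the minus strand (Ccng1) and chr10:41887189-41887488 on the plus strand (Sesn1).
Cdkn1a promoter: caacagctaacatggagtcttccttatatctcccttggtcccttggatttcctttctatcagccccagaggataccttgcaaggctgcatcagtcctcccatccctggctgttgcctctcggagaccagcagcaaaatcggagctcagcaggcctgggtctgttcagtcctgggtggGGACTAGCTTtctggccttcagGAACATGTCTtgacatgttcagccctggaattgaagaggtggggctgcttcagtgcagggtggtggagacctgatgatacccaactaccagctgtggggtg
Mdm2 promoter: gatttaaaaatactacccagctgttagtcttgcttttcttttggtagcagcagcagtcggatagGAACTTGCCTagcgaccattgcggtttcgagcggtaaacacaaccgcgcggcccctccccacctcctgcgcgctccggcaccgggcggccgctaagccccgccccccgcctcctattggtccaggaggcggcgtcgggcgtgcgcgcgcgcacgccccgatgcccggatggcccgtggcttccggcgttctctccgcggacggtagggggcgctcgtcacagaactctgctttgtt
Ccng1 promoter: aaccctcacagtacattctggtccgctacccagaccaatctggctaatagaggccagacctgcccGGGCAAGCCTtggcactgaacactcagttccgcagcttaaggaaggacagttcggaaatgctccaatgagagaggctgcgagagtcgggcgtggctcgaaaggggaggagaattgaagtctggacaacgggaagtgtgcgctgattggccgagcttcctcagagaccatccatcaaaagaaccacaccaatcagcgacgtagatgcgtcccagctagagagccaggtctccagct
Sesn1 promoter: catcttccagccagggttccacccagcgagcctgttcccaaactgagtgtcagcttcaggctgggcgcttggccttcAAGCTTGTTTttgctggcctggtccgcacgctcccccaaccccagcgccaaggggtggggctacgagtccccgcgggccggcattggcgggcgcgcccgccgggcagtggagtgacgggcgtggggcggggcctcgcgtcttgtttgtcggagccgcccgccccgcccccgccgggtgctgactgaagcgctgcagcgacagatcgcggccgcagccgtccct

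Every value is a MAS5 signal, a linear brightness that combines the probes of a probe set and is scaled per array. The trimmed mean signal was 498.0 in co-culture, 497.7 in conditioned medium and 497.8 in regular medium. Signals under 42.4, the pooled 40th percentile, were raised to that floor and then put on the log2 scale. A gene was called measured in a comparison when the brighter array reached 149.3, the pooled 60th percentile, and higher or lower when the signals also differed at least 2-fold. Where a gene had several probe sets, the brightest on average stood for it. With 1 array per condition there is no replicate error, so no test was run and each difference compares 2 arrays. Of 9 mammary epithelial markers 8 were measured. The simple-epithelium genes Epcam, Krt8 and Krt18 had signals of 5543, 16476 and 21097 in co-culture, 5009, 15956 and 19115 in conditioned medium and 5196, 15049 and 18723 in regular medium. The basal keratin gene Krt14 was 2.77-fold lower in co-culture, with 439.1 there, 1263 in conditioned medium and 1218 in regular medium, on a probe set whose x_at suffix marks probes that may also bind related transcripts. Krt5, another basal keratin gene, did not reach 149.3, with 32.5 in co-culture, 66.3 in conditioned medium and 82.7 in regular medium. Krt7, Cdh1, Cldn4 and Cldn7 differed by 0.61, 0.68, 0.81 and 0.38 between co-culture and regular medium, short of the 2-fold rule.

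In co-culture, 1 of the 9 p53 targets, Trp53inp1, was at least 2-fold higher than in regular medium and none was lower. Of all 9393 measured genes 8.57% met this rule, 5.81% higher and 2.76% lower. The other 8 lay between log2 differences of -0.59 and 0.51. The median of the 9 was 0.13, beside 0.07 for all measured genes. In conditioned medium none of the 8 measured targets met the rule, where 0.415% of 9152 measured genes did, and their median of 0.01 was also that of all genes. A count of 1 in 9 is close to the background share. In bulk RNA, fewer cells with a transcript and less of it per cell cannot be told apart.

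**Figure D1:**
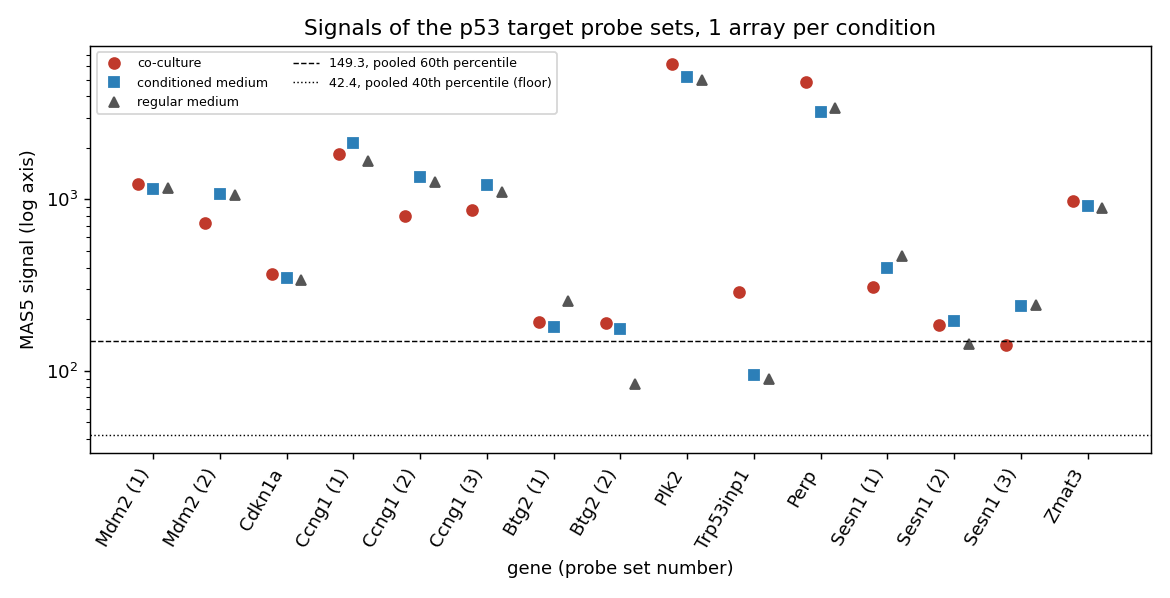
MAS5 signal (log axis) of the 15 probe sets of p53 target genes that reached 149.3 on at least 1 array, with 1 point per array and genes ordered by role. Trp53inp1 had 288.4 in co-culture, 94.9 in conditioned medium and 89.9 in regular medium, while the points of most other probe sets lie close together.

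Mdm2, the ubiquitin ligase that degrades p53 and closes its negative feedback, was nearly level on its brightest probe set (1423605_a_at). The signal was 1235 in co-culture, 1154 in conditioned medium and 1167 in regular medium. Its other bright probe set, 1427718_a_at, had 728.0 in co-culture, 1078 in conditioned medium and 1059 in regular medium. The log2 difference of co-culture from regular medium was therefore 0.08 on one and -0.54 on the other, a gap of 0.62. For the 2419 genes with exactly 2 bright probe sets the median gap in this comparison was 0.32 and the 90th percentile 0.88, so disagreement of this size was common. The conditioned-medium differences of the same probe sets were -0.02 and 0.03. The remaining probe set, 1457929_at, stayed at or under 49.2.

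Cdkn1a encodes p21, the inhibitor of cyclin-dependent kinases through which p53 halts the cycle. Its bright probe set had a signal of 366.7 in co-culture, 350.0 in conditioned medium and 340.5 in regular medium. The levels on the 3 arrays thus lay within 1.08-fold of each other. The log2 difference of 0.11 between co-culture and regular medium was equalled or exceeded in size by 82.3% of measured genes. The other probe set, 1421679_a_at, had 11.7, 48.7 and 8.2 on the same arrays, below 149.3 throughout.

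Ccng1 encodes cyclin G1, a p53-induced partner of a phosphatase that acts on Mdm2. Its brightest probe set had 1845 in co-culture, 2140 in conditioned medium and 1668 in regular medium. The other probe sets had 803.0 and 871.3 in co-culture, 1350 and 1212 in conditioned medium, and 1262 and 1103 in regular medium. On each of the 3 the conditioned-medium array was the brightest, with log2 differences of 0.10 to 0.36 from regular medium. Co-culture minus conditioned medium ran from -0.75 to -0.21. Against regular medium the co-culture differences were 0.15, -0.65 and -0.34, so the probe sets did not give one direction. In conditioned medium the difference of 0.36 ranked 298 from the top of 9152 measured genes.

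Btg2, an antiproliferative gene that is also an immediate early gene, gave the widest disagreement. Probe set 1416250_at had 192.4 in co-culture, 181.3 in conditioned medium and 255.1 in regular medium. Probe set 1448272_at had 190.0 in co-culture, 176.2 in conditioned medium and 84.1 in regular medium. The log2 difference of co-culture from regular medium was -0.41 on the brighter and 1.18 on the dimmer, and that of conditioned medium was -0.49 and 1.07. Between co-culture and conditioned medium the same probe sets differed by 0.09 and 0.11, a gap of 0.02. The regular-medium array is thus the one on which the 2 probe sets part, and no direction against regular medium is given for Btg2. The dimmer probe set reached 149.3 only on the other 2 arrays.

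Plk2, a polo-like kinase induced by p53 and by serum, had signals of 6129 in co-culture, 5200 in conditioned medium and 4985 in regular medium. Co-culture lay 1.23-fold above regular medium and conditioned medium 1.04-fold. Its other probe set, 1443780_at, stayed at or under 22.1 on the 3 arrays.

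**Figure D2:**
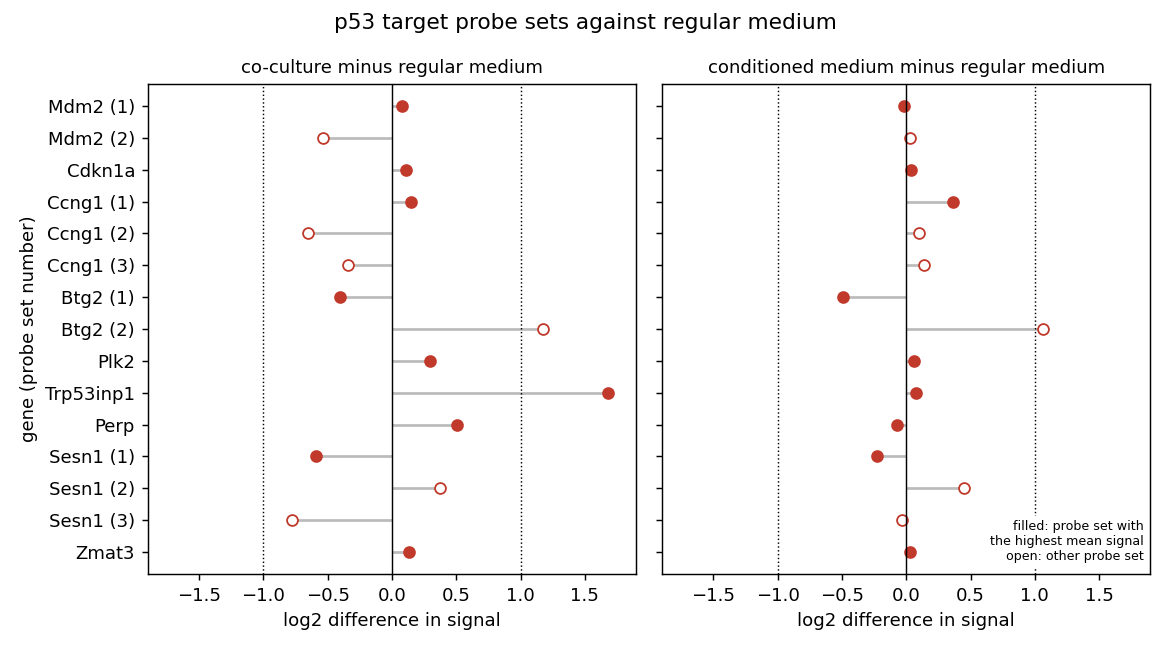
Log2 difference in signal from regular medium for the same 15 probe sets, for co-culture (left) and conditioned medium (right), with filled points for the brightest probe set of a gene, open points for others and dotted lines at 2-fold. Trp53inp1 (1.68) and the dimmer Btg2 probe set (1.18) pass the line in co-culture, and that Btg2 probe set alone (1.07) passes it in conditioned medium.

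Trp53inp1, which encodes a stress-induced protein that promotes p53 phosphorylation and takes part in autophagy and cell death, had the largest difference. Its probe set 1416926_at had 288.4 in co-culture, 94.9 in conditioned medium and 89.9 in regular medium. Co-culture was 3.21-fold above regular medium and 3.04-fold above conditioned medium, which were 1.06-fold apart. The difference of 1.68 ranked 147 from the top of 9393 measured genes, and 2.03% of them differed by as much in either direction. Trp53inp1 reached 149.3 in co-culture alone, so it counted as measured through the array on which it was high. Its other probe set, 1416927_at, was below the floor on each array, with 30.7, 6.5 and 38.8. The 2-fold call was lost with a floor at the 60th percentile, where the log2 difference was 0.95, with the mean of both probe sets, where it was 0.67, and when genes had to reach the 80th percentile of signal.

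The genes whose pattern lay nearest to that of Trp53inp1 were sought by Euclidean distance over its 2 log2 differences from regular medium, among 9412 genes above the floor on the 3 arrays. The nearest genes with other symbols were Mcrip1, Serpinb9, an inhibitor of granzyme B, and Plcd3, a phospholipase C, at distances of 0.05 log2 units each. Serpinb9 had a signal of 888.6 in co-culture, 290.5 in conditioned medium and 282.8 in regular medium.

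Perp, a membrane protein of desmosomes that acts in p53-dependent cell death, had 4867 in co-culture, 3251 in conditioned medium and 3420 in regular medium. Co-culture was 1.42-fold above regular medium, and its log2 difference from conditioned medium was 0.58, short of the 2-fold rule in both. Of all measured genes, 32.7% differed by as much between co-culture and regular medium. Perp has 1 probe set here, so no second reading was available.

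Sesn1 encodes sestrin 1, which restrains mTORC1 and lowers oxidative stress. Its brightest probe set, 1433711_s_at, had 308.4 in co-culture, 397.8 in conditioned medium and 464.6 in regular medium, a 1.51-fold lower signal in co-culture than in regular medium. Probe set 1454699_at had 141.6 in co-culture, 237.8 in conditioned medium and 242.7 in regular medium, 1.71-fold lower in co-culture. Probe set 1438931_s_at had 185.9 in co-culture, 195.5 in conditioned medium and 143.4 in regular medium, 1.30-fold higher in co-culture. On the 3 bright probe sets co-culture lay below conditioned medium, with log2 differences of -0.75 to -0.07. With a 1.5-fold rule Sesn1 would join Trp53inp1, as 26.7% of measured genes would meet it.

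Zmat3, an RNA-binding zinc finger protein that acts on splicing and mRNA stability downstream of p53, was level, with 972.8 in co-culture, 909.4 in conditioned medium and 889.7 in regular medium. Co-culture and regular medium were 1.09-fold apart.

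Taken by order of levels on the brightest probe set of each gene, co-culture was the brightest array for 6 of the 9 genes, conditioned medium for Ccng1, and regular medium for Sesn1 and Btg2. Not every probe set kept this order. Another bright probe set of Btg2 and of Sesn1 was dimmest in regular medium, and that of Mdm2 was dimmest in co-culture. Co-culture was the brightest for 50.7% of all 9452 genes measured on any array. Among the 15 bright probe sets of the targets, 9 lay above regular medium in co-culture and 6 below. At the level of probe sets, 2 of 15 met the 2-fold rule in co-culture, against 10.9% of 16899 named probe sets, and 1 of 14 in conditioned medium, against 0.576% of 16494. The single conditioned-medium call was the dimmer Btg2 probe set. The comparisons with regular medium share that array, so their values are set side by side and not counted as agreeing.

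**Figure D3:**
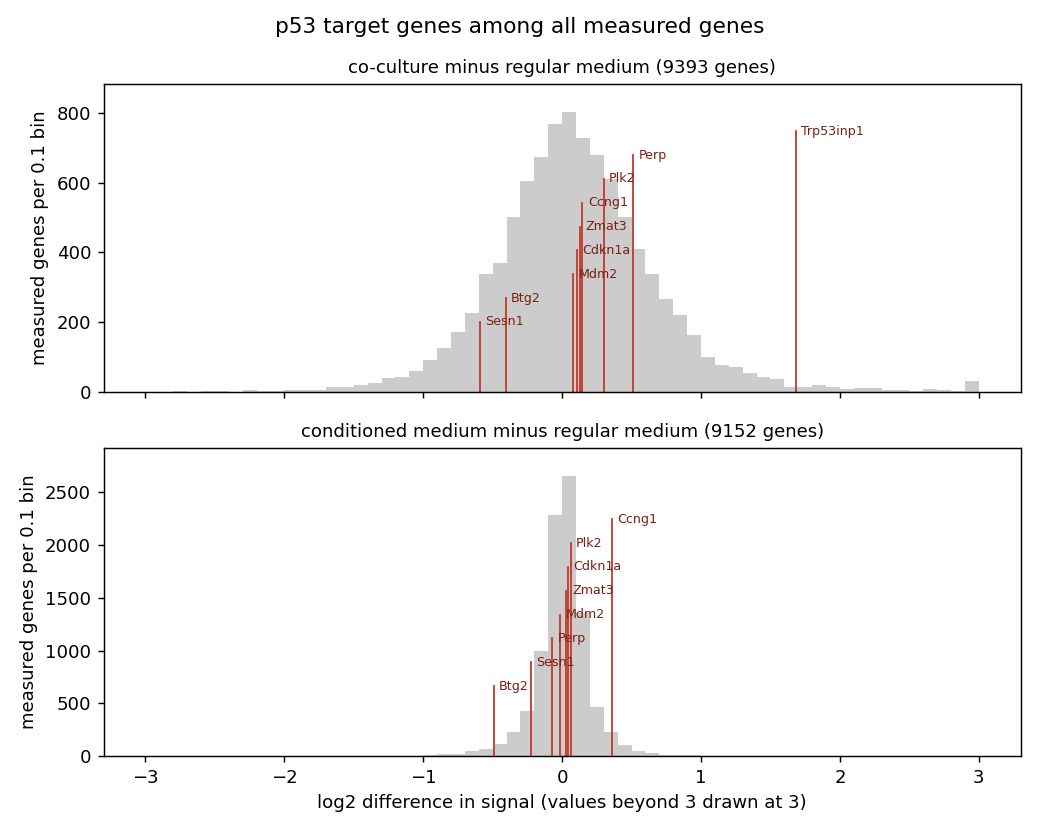
Number of measured genes in each 0.1 bin of log2 difference from regular medium (grey bars), for co-culture above and conditioned medium below, with red lines at the values of the measured p53 target genes. In co-culture 8 of the 9 lie between -0.59 and 0.51, within the bulk of genes, and Trp53inp1 lies at 1.68.

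Between co-culture and conditioned medium, which share 1 week of culture per the labels, Trp53inp1 was again the one target to meet the rule, where 8.43% of 9350 measured genes did and 5.83% were higher. The other 8 lay between -0.37 and 0.58, and the median of the 9 was 0.10 beside 0.07 for all genes. Ccng1, Sesn1 and the dimmer of the bright Mdm2 probe sets had lower signals in co-culture than in conditioned medium, at -0.21, -0.37 and -0.57. Isolation is stated for the co-culture cells and for no other, so contact and isolation cannot be told apart.

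Other targets and regulators were counted from lists chosen with earlier results of these data known. Of 30 other p53 targets 27 had a probe set and 21 were measured in co-culture against regular medium. Of these, 3 were higher and 1 was lower, where 5.81% of all measured genes were higher and 2.76% lower, and the median was 0.22 beside 0.07 for all genes. Gadd45a, a growth arrest and stress gene, had 4499 in co-culture, 703.6 in conditioned medium and 534.7 in regular medium. The death receptor gene Fas had 365.3 in co-culture, 43.0 in conditioned medium and 43.7 in regular medium, and reached 149.3 in co-culture alone. Bbc3, which encodes the BH3-only protein PUMA, was 2.11-fold higher with 585.8 in co-culture against 277.1 in regular medium. Tnfrsf10b, a receptor for the death ligand TRAIL, was 2.26-fold lower with 98.6 against 222.8, while its other bright probe set differed by -0.25. The probe set used has an s_at suffix, which marks probes that may also bind other transcripts. The Tnfrsf10b call was lost without s_at and x_at probe sets. It was also lost with a floor at the 60th percentile and with the mean of all or of bright probe sets. Of the 21 measured targets, 14 lay above regular medium and 7 below. The next largest differences were 0.96 for Pml, 0.81 for Sesn2 and -0.77 for Sfn, the gene of the checkpoint protein 14-3-3 sigma. The other bright probe sets of Pml and Sesn2 gave 1.13 and 1.23, past the 2-fold rule, and both genes met it with the mean of all or of bright probe sets.

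Several other textbook p53 targets lay nearer to 0. Phlda3, an inhibitor of AKT, differed by 0.16, the apoptosis nuclease gene Aen by -0.10, Ei24 by 0.03, Ddb2, a damage sensor, by 0.38 and Rrm2b, a ribonucleotide reductase subunit, by 0.30. Other bright probe sets of Aen gave 0.74 and -0.89, so no direction is given for it, and those of Rrm2b ran from 0.08 to 1.21. In conditioned medium none of the 20 measured other targets met the rule, and the largest difference was 0.46, for Plk3.

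Of 20 regulators and relatives of p53, 17 were measured and none met the rule on its brightest probe set in either comparison with regular medium. Hipk2 did in co-culture with arrays scaled to equal medians. The median was 0.03 in co-culture and 0.00 in conditioned medium. The largest co-culture difference was 0.99 for Hipk2, a kinase of p53, although 5 other bright probe sets of it ran from -0.48 to at least 1.88. Rchy1, a ubiquitin ligase for p53, followed with 0.84. Mdm4, the Mdm2 partner that masks p53, differed by 0.17, and the kinases Atm and Atr by -0.24 and 0.04. Usp7 and Ppp1r13l differed by -0.37 and 0.30 on their brightest probe sets. Other bright probe sets ran from -1.36 to 0.20 for Usp7 and from -0.16 to 1.05 for Ppp1r13l, so single ones passed 2-fold. Trp63 and Trp73, relatives that bind like sequences, were below the floor on the 3 arrays, with at most 30.2 and 24.1.

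A list of cell cycle genes that the DREAM complex is known to repress was also counted. These genes vary with proliferation in general, whatever its cause, and so do not report p53 or p21 activity. Of 9 measured genes 5 were at least 2-fold lower in co-culture than in regular medium and none was higher, where 2.76% of all measured genes were lower. The median was -1.06, beside 0.07 for all genes. Ccna2, the cyclin of S and G2 phase, had 3291 in co-culture, 9527 in conditioned medium and 9444 in regular medium. Plk1, Ccnb2, Birc5 and Bub1b were 2.71-fold, 2.49-fold, 2.14-fold and 2.08-fold lower. Cdk1, Cdc20, Cdc25c and Mybl2 differed by -0.95, -0.59, -0.53 and -0.30, so all 9 lay below regular medium. Other bright probe sets gave -0.97 and -0.87 for Cdc20, -0.78 for Cdc25c and -1.38 for Mybl2. The number past 2-fold thus depends on the probe set used. On the same arrays Cdkn1a differed by 0.11. In conditioned medium none of the 9 met the rule, with a median of 0.05. Over the 3 lists, 3 genes were higher and 6 lower in co-culture, a split that became 5 higher and 4 lower when arrays were scaled to equal medians. Birc5 and Bub1b then no longer met the rule, while Pml and the regulator Hipk2 did. The split was 5 higher and 5 lower with the mean of all or of bright probe sets, and 1 higher and 5 lower when genes had to reach the 80th percentile of signal, where Fas, Bbc3 and Tnfrsf10b were lost.

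**Figure D4:**
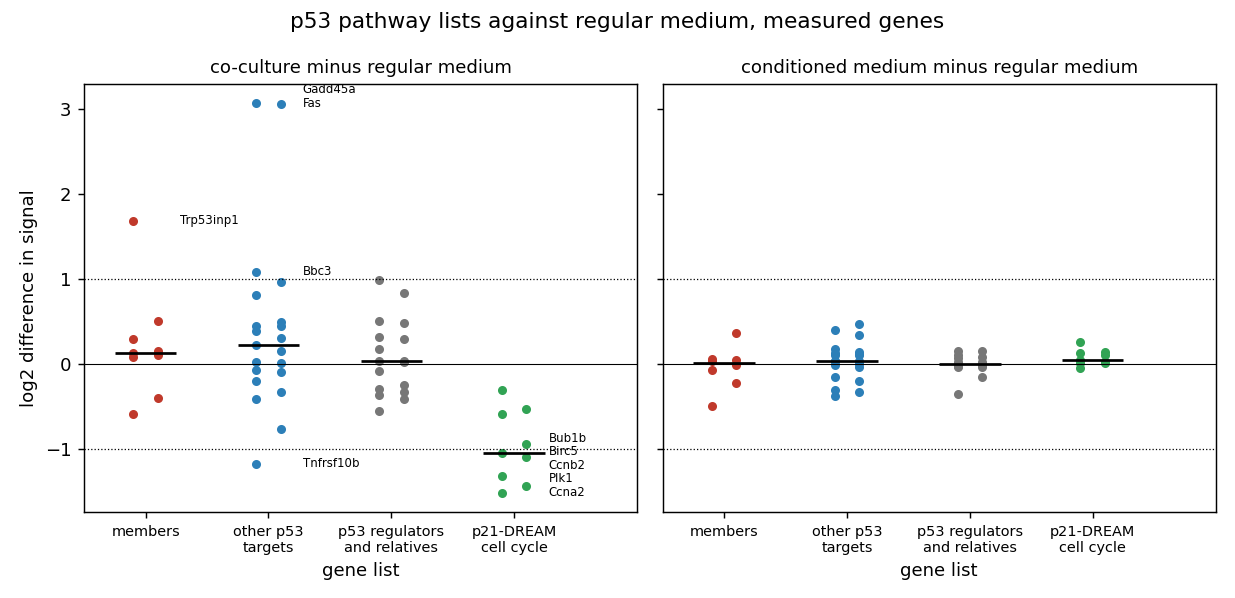
Log2 difference from regular medium of the measured genes of the p53 target members and of the 3 pathway lists, for co-culture (left) and conditioned medium (right), with 1 point per gene, black bars at list medians, dotted lines at 2-fold and names beyond them. The cell cycle genes have a median of -1.06 in co-culture and 0.05 in conditioned medium, while the members have 0.13 and 0.01.

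Other signals moved with co-culture. Of 13 MSC and fibroblast markers with a probe set, 6 were measured and all 6 were above regular medium. The difference was at least 2-fold for 2 of them, Bgn and Postn. Bgn, Col1a2 and Pdgfra reached 149.3 in co-culture but not in regular medium, so once measured they could only lie above it. The Bgn difference also rests on the floor, with 181.5 in co-culture and 12.3 in regular medium. The summed signal of the 13 markers was 7259 in co-culture, 4564 in conditioned medium and 4215 in regular medium, and 5 of them, Col1a1, Dcn, Thy1, Pdgfrb and Mgp, lay at or under the floor in co-culture. Nt5e, Postn and Eng gave most of this sum, with 3186, 1803 and 1477 in co-culture and 2157, 765.6 and 937.8 in regular medium. The summed signal of the 9 mammary epithelial markers was also higher in co-culture, at 86036 against 67582 in regular medium. Of 9 measured immediate early genes, which rise on handling of cells, 2 were at least 2-fold higher in co-culture than in regular medium. They were Fos with 440.2 against 103.5 and Atf3 with 2888 against 686.4, and the median of the 9 was 0.34. Fos reached 149.3 in co-culture alone, so it counted as measured through the array on which it was high. The other measured genes ran from -0.17 for Dusp1 to 0.48 for Egr1. The summed signal of the 10 listed was 15782 in co-culture, 10990 in conditioned medium and 10779 in regular medium. Of 6 leukocyte and macrophage markers 3 were measured and none met the rule, and Ptprc and Itgam lay under the floor on each array. The part of these cell types or of handling in the Trp53inp1, Gadd45a, Fas and cell cycle values was not tested.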

How the data were processed

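RNA of 4T1 cells from 3 culture conditions was hybridised to 1 array each, grouped as the labels give them. The deposited intensity values are MAS5 signals on a linear scale, per the submitters' processing notes; its version and target level are not given in the sources used. No further scaling was applied. Of 45037 probe sets, 34945 had 1 gene symbol, 932 had more than 1 and 9160 lacked one, and these last 2 kinds were left unnamed. Symbols of 34741 were updated through the gene ID, giving 18193 genes, each read from its probe set with the highest mean signal. No per-sample column was left unused.

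The floor, filter and 2-fold rule are given with the results. No test was run, because each group had 1 array, and this number limits the precision. The members, lists, alternatives and the rule for named genes were chosen with earlier results of these data known. The text names the 9 members with their probe sets and, per list, the genes past 2-fold on their brightest probe set. Of the other targets and regulators short of 2-fold it names only some. Genes with larger differences than several of those named were left out, such as Chek2 (-0.56) and Ddit4 (0.49) in co-culture against regular medium. Phlda3, Aen, Ei24, Ddb2, Rrm2b, Mdm4, Atm, Atr, Trp63 and Trp73 were named for their roles after their values were seen. Usp7 and Ppp1r13l were named, also after their values were seen, for other probe sets past 2-fold. Promoter sequences are RefSeq's (GRCm38.p6). The calling step was tested on simulated data. Alternatives changed scaling, floor, filter, fold and probe set choice. The tools were NumPy 2.4.6, pandas 2.3.3, SciPy 1.17.1 and Matplotlib 3.10.9 under Python 3.11.15.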

Additional observations from a re-analysis of the deposited data

How the results depend on the processing

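Of 297 recomputed member differences (9 genes, 3 comparisons and 11 alternatives), 288 kept their call, that is whether the gene was both measured and past the fold rule of that setting. Most of these were genes not past the rule at the outset. Only Trp53inp1, in both comparisons with co-culture, was past it, and its call was lost in 6 recomputations. A call was gained in 3 others. A kept call does not mean a kept size. The Cdkn1a difference of conditioned medium from regular medium was 1.30 in place of 0.04 with the mean of all probe sets, where its dim probe set entered and the gene did not reach the signal filter. The count of targets past the rule, 1 in co-culture against regular medium and 1 against conditioned medium, became 0 in both with a floor at the 60th percentile and with a filter at the 80th. It became 2 against regular medium with a 1.5-fold rule. With the mean of all probe sets the count stayed 1 but the gene was Plk2 (-1.27 against regular medium, -1.58 against conditioned medium), whose dim probe set then entered. With bright probe sets alone, an alternative chosen after seeing the data, it was Trp53inp1 again. Directions of Mdm2, Ccng1, Btg2 and Plk2 in co-culture against regular medium turned under at least 1 way of combining probe sets. For the other pathway genes the count of 9 in both co-culture comparisons became 16 against regular medium and 17 against conditioned medium with a 1.5-fold rule, and 2 in each with a 3-fold rule. The counts in conditioned medium against regular medium stayed 0 under the 11 alternatives for members and other pathway genes.

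Over all genes, 805 calls in co-culture against regular medium became 2512 at 1.5-fold, 222 at 3-fold and 435 with the filter at the 80th percentile. Against conditioned medium 788 became 2509, 233 and 423. In conditioned medium against regular medium 38 became 203, 17 and 2, and 3 with a floor at the 60th percentile, 259 without a filter and 88 with the mean of all probe sets. Equal medians moved the median of all genes from 0.07 to 0.21 in co-culture against regular medium, and from 0.01 to 0.17 in conditioned medium. The share of calls that were higher then was 82.7% in place of 67.8%, and 58.1% in place of 26.3% (37.5% with quantile normalization). Perp and Mdm2 in conditioned medium, at -0.07 and -0.02, turned positive with equal medians, by no more than the shift of all genes. No paired analysis was possible because each condition had 1 array.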
